A study of Mus musculus with 6 samples.

Results

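Tropomyosins, tropomodulins and leiomodins are the proteins that coat the actin filament and govern its slow-growing, pointed end. They were followed here as 10 genes, chosen by symbol from the gene rows of an RNA sequencing table of mouse C2C12 cells: 4 tropomyosins (Tpm1, Tpm2, Tpm3 and Tpm4), 3 tropomodulins (Tmod1, Tmod2 and Tmod3) and 3 leiomodins (Lmod1, Lmod2 and Lmod3). All 10 were found among the 56792 rows, each once, and all 10 were among the 14989 rows with enough counts for a test. The lenvatinib group was 3 libraries of C2C12 cells differentiated in low horse serum for 4 days and treated with 1 µM lenvatinib. The untreated group was 3 libraries of C2C12 cells differentiated in the same way without the drug. C2C12 is an established mouse myoblast line, labelled wild type, whose cells leave the cell cycle and fuse into myotubes in low serum. Lenvatinib inhibits receptor tyrosine kinases, among them those for vascular endothelial and fibroblast growth factors. The labels do not say whether replicates came from separate cultures, so the p-values rest on the spread among 3 libraries per group, and that spread may be technical. The time at which the drug was added and any solvent given to untreated cells are not stated there.

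In striated muscle, tropomyosin lies head to tail along the thin filament as a coiled coil, and troponin moves it to open or close the myosin binding sites. Tropomodulin binds tropomyosin and actin at the pointed end and caps it, which holds the filament at its length. Leiomodin is built from related domains with an added actin-binding part, starts new filaments and lets thin filaments lengthen. Each tropomyosin gene also makes shorter forms for the cytoskeleton of non-muscle cells, from other promoters and by alternative splicing, and the counts per gene used here do not separate these forms.

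With lenvatinib, transcripts of 5 genes rose: Lmod1, Tmod1, Tpm1, Lmod2 and Tpm4, by 1.51, 1.32, 1.24, 1.16 and 1.11-fold. Transcripts of 2 genes fell, Tpm3 and Tmod3, by 14.2% and 14.4%. Tpm2, Tmod2 and Lmod3 did not pass the test. A gene was called when its Benjamini-Hochberg adjusted p over all rows tested was under 0.05 in the edgeR quasi-likelihood test. Of all rows tested 28.2% were called, 13.3% higher and 14.9% lower with lenvatinib. The median log2 fold change was 0.18 over the 10 genes and 0.00 over all tested rows, and the median size of the log2 fold change, sign aside, was 0.22 and 0.12. In 8 of the 10 genes the groups did not overlap, and the same held for 40.1% of all tested rows. Every lenvatinib library was higher in 5 of the genes (19.6% of tested rows) and lower in 3 of them (20.5% of tested rows). The cells are measured in bulk, so fewer cells of a type and less RNA per cell cannot be told apart.

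**Figure D1:**
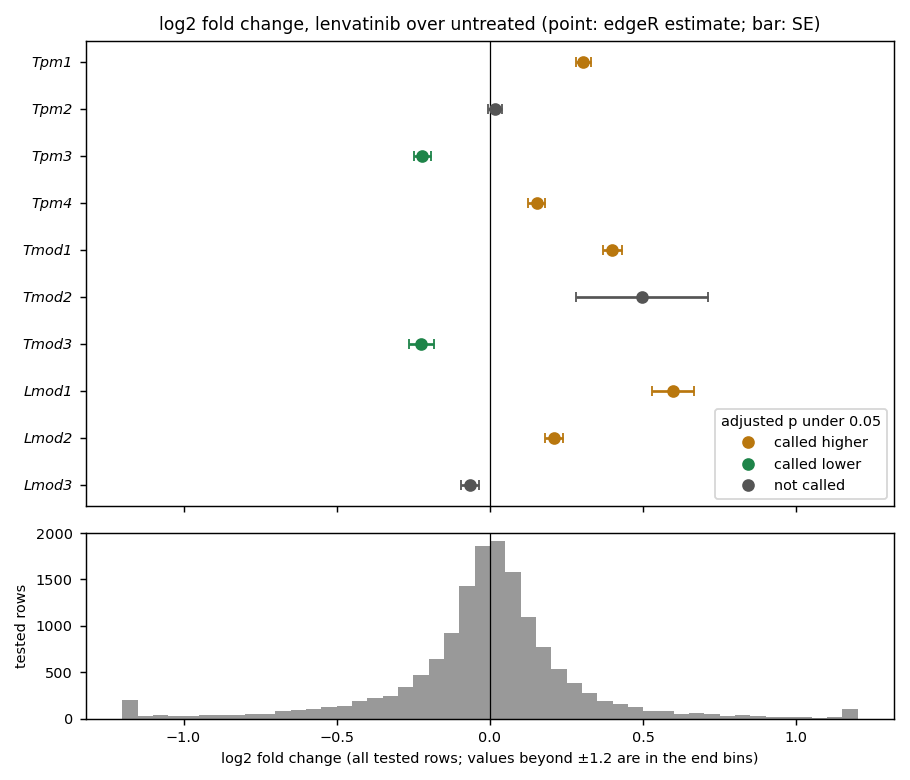
The upper panel gives the log2 fold change of each gene, lenvatinib over untreated, with its SE, and the lower panel a histogram of the same quantity over all 14989 tested rows. Lmod1 has the largest value of the 7 called genes (0.60), and Tpm3 and Tmod3 are the 2 called genes below 0; the widest bar belongs to Tmod2, which has the fewest counts.

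The libraries held 24566768 to 32406563 counts with lenvatinib and 25529288 to 28886472 counts without it. Of 10 markers of skeletal myotubes fixed as a list, all were tested, 4 were higher and 2 lower. Their summed level was 15029 to 15575 CPM with lenvatinib and 14708 to 15499 CPM without it. The 4 higher were Myog, Mymk, Myh3 and Ckm (log2 fold changes 0.275, 0.17, 0.10 and 0.15), and the 2 lower Actn2 and Des (-0.15 and -0.19). Ttn was not called and varied most between libraries, at 1705 ± 254 CPM with lenvatinib and 1837 ± 416 CPM without it. With Ttn left out, the sums did not overlap and were higher with lenvatinib. CPM is a gene's counts relative to the library's total over tested rows, scaled with TMM factors. Of 8 cardiomyocyte markers 3 were tested and none was called, with sums of 18.2 to 20.3 CPM with lenvatinib and 19.8 to 21.9 CPM without it, and Myl7 was at 0. Of 7 fibroblast markers 5 were tested, 1 was higher and 2 lower, and their sums did not overlap, at 861 to 951 CPM with lenvatinib and 812 to 847 CPM without it. Col1a1, the 1 higher, made up most of the sum, at 615 ± 45.4 CPM with lenvatinib and 483 ± 14.3 CPM without it. The 2 lower were Pdgfra and Pdpn, with log2 fold changes of -0.41 and -0.26. Of 6 endothelial markers 1 was tested and not called (Tek, log2 fold change 0.88 ± 0.36, adjusted p = 0.0645), with sums of 0.848 to 1.55 CPM with lenvatinib and 0.745 to 1.01 CPM without it. Of 5 macrophage markers 2 were tested and none was called, and none of 7 erythroid markers had enough counts for a test. The part of such cells in the values that follow was not tested.

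The upstream sequences of the 3 called genes with the largest rises are shown because they share a short motif. RefSeq promoter windows (build GRCm38.p6) were at hand for 8 of the 10 genes, as 10 windows, and not for Tmod3 and Lmod3. In the 250 bases before the annotated start, the MCAT motif CATTCC, searched on both strands, occurred in 3 of these 10 windows, those of Lmod1, Tmod1 and Tpm1. Capitals mark it, and GGAATG is the same motif on the other strand.
Lmod1 (chr1:135324563-135324812, plus strand): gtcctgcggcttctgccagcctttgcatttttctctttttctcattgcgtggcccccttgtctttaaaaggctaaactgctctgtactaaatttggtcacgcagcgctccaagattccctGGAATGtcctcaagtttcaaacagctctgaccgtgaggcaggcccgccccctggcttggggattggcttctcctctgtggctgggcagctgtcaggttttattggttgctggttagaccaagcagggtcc
Tmod1 (chr4:46038972-46039221, plus strand): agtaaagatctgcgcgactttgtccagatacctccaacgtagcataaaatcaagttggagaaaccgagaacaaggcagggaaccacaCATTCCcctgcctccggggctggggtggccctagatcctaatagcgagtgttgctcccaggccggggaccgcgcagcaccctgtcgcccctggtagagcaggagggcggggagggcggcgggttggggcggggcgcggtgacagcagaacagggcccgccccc
Tpm1 (chr9:67049214-67049463, minus strand): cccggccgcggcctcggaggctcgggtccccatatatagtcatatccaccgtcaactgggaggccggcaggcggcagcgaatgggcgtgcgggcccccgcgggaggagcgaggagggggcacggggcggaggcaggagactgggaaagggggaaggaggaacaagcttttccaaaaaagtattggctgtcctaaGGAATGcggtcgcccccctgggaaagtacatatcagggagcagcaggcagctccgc
The motif begins 130 bases before the start in Lmod1, 163 in Tmod1 and 56 in Tpm1. Of all 32851 RefSeq windows of this length 12.6% hold it. The motif was picked out after the fold changes and sequences had been seen, and a match is a description of the letters only. The E-box CANNTG, bound by myogenic factors, was in 8 of the 10 windows and in 66.2% of all windows, and may overlap other motifs. The CArG box of serum response factor and the MEF2 motif, each searched as an exact match on both strands, were in 0 of the 10 windows, and in 1.47% and 2.92% of all windows.

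Among the tropomyosins, Tpm1 encodes alpha-tropomyosin, the main form of fast skeletal and cardiac muscle (ENSMUSG00000032366, chromosome 9, 66929872 to 66956688 on the minus strand). All positions of genes are as deposited, and their build is not mm10, the build named in the submitters' processing notes. Tpm1 had 1962, 1945 and 1884 CPM in the lenvatinib libraries, against 1577, 1545 and 1564 CPM in the untreated libraries. Every lenvatinib library lay above every untreated one, and the gap between the groups was larger than the spread within either. The means were 1930.4 ± 41.1 CPM with lenvatinib and 1562 ± 15.8 CPM without it (SD, n = 3 each), a log2 fold change of 0.31 ± 0.02 (SE, adjusted p = 8.28e-14). Tpm1 ranked 37th and Tpm2 12th of all rows by mean CPM, so counting error is small for these genes.

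Tpm2 encodes beta-tropomyosin, the partner of alpha-tropomyosin in skeletal muscle (ENSMUSG00000028464, chromosome 4, 43514711 to 43523765, minus strand). It had 2857, 2886 and 2853 CPM with lenvatinib, against 2802, 2837 and 2858 CPM without it. The groups overlapped, and the third untreated library was higher than 2 of the lenvatinib libraries. The log2 fold change was 0.02 ± 0.02 (adjusted p = 0.63).

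Tpm3 encodes the tropomyosin of slow muscle fibers and several forms of the non-muscle cytoskeleton (ENSMUSG00000027940, chromosome 3, 89979956 to 90008209, plus strand). It had 257, 266 and 267 CPM with lenvatinib, against 309, 309 and 303 CPM without it. All 3 lenvatinib libraries were lower than all 3 untreated ones, with means of 263 ± 5.17 and 307 ± 3.16 CPM and a log2 fold change of -0.22 ± 0.03 (adjusted p = 1.87e-08). Of the 50-base stretches of annotated Tpm3 transcripts, 23.2% also occur in Tpm3-rs7, a related copy on another chromosome. Of the stretches of Tpm3-rs7, 69.4% occur in Tpm3. Whether reads from shared stretches were counted in either row or in neither is not known here. Tpm3-rs7 had 39.5 ± 1.07 CPM with lenvatinib and 42.2 ± 0.0882 CPM without it and did not pass (-0.10 ± 0.05, adjusted p = 0.128).

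Tpm4 encodes a tropomyosin of the non-muscle cytoskeleton (ENSMUSG00000031799, chromosome 8, 72884018 to 72906986, plus strand). It had 558, 549.8 and 526 CPM with lenvatinib, against 495, 487 and 486.5 CPM without it. The lenvatinib libraries were all higher, the third of them lying closest to the untreated ones. The log2 fold change was 0.15 ± 0.03 (adjusted p = 2.1e-05). The row Gm7809, which shares 11.7% of the 50-base stretches of Tpm4, held 44 to 102 counts with lenvatinib and 57 to 64 counts without it.

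**Figure D2:**
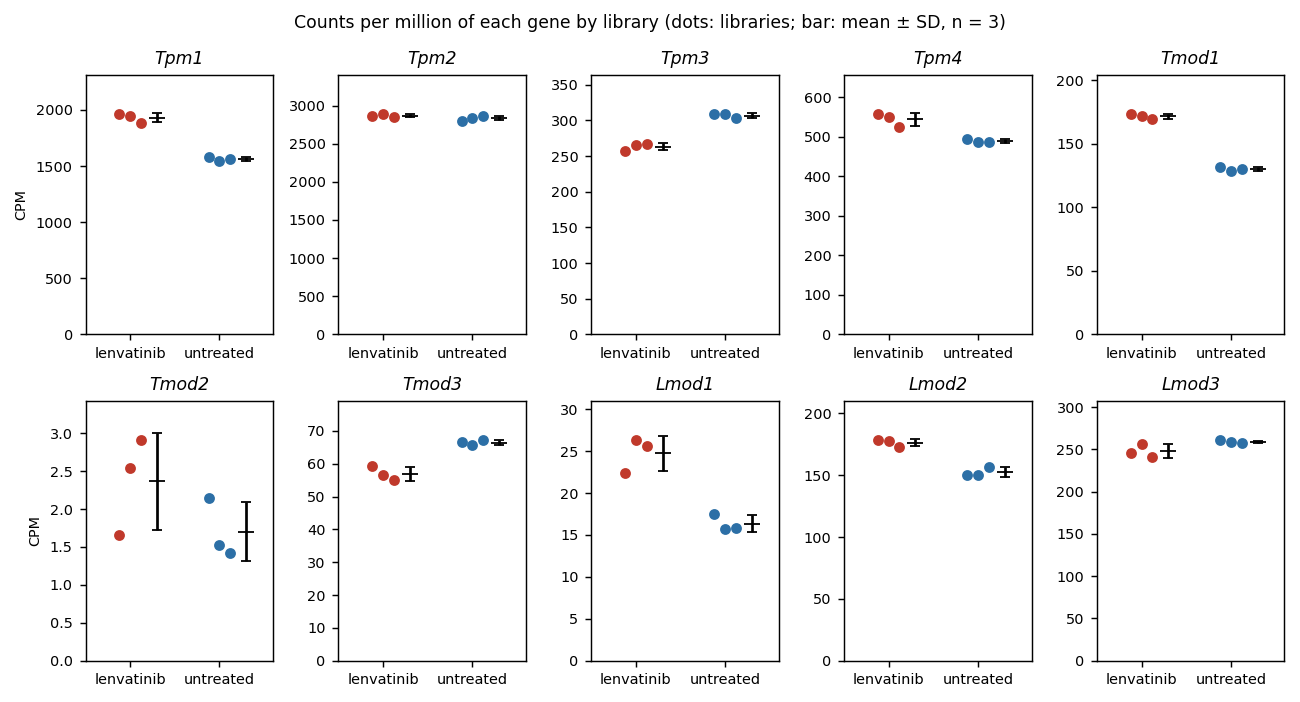
Each panel shows 1 gene, with its CPM on an axis from 0 in the 3 lenvatinib libraries (left) and the 3 untreated libraries (right) and the mean ± SD beside the dots. The groups overlap in Tpm2 and Tmod2, and in Lmod3 the second lenvatinib library (257 CPM) lies just under the lowest untreated library (258 CPM).

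Tmod1 encodes the tropomodulin of striated muscle and red cells (ENSMUSG00000028328, chromosome 4, 46038935 to 46116032, plus strand). It had 173, 172 and 169.7 CPM with lenvatinib, against 132, 129 and 129.8 CPM without it. The replicates of each group lay within a few CPM of each other and the groups were far apart, with means of 172 ± 1.84 CPM with lenvatinib and 130.1 ± 1.57 CPM without it. The log2 fold change was 0.40 ± 0.03 (adjusted p = 3.28e-14), the smallest p of the 10 genes. Tstd2 overlaps Tmod1 on the other strand, and whether reads were counted by strand is not known here; its own row did not pass (33.8 ± 1.38 CPM with lenvatinib and 34.8 ± 2.04 CPM without it, adjusted p = 0.643).

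Tmod3 encodes the widely expressed tropomodulin, which also caps cytoskeletal filaments (ENSMUSG00000058587, chromosome 9, 75404989 to 75466939, minus strand). It had 59.3, 56.6 and 55.0 CPM with lenvatinib, against 66.6, 65.6 and 67.1 CPM without it. Every lenvatinib library was lower, and the log2 fold change was -0.22 ± 0.04 (adjusted p = 2.34e-05).

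Tmod2 encodes the neuronal tropomodulin (ENSMUSG00000032186, chromosome 9, 75472903 to 75518607, minus strand). Its row held 41, 62 and 94 counts with lenvatinib, against 57, 39 and 41 counts without it, which is 2.37 ± 0.641 CPM with lenvatinib and 1.70 ± 0.388 CPM without it. The groups overlapped, since the first lenvatinib library was lower than the first untreated one. The log2 fold change of 0.50 ± 0.21 was larger than that of Tmod1 but did not pass the test (adjusted p = 0.0826). It passed without lenvatinib replicate 1 (0.69, adjusted p = 0.0137) and without untreated replicate 1 (0.70, adjusted p = 0.0284). It was 0.30 without lenvatinib replicate 3 (adjusted p = 0.417) and 0.38 without untreated replicate 3 (adjusted p = 0.276), so single libraries decide its size and its call. Of 5 neuronal markers with a row, 2 were tested, Stmn2 and Map2, and both were lower with lenvatinib. The 5 summed to 75.9 to 80.9 CPM with lenvatinib and 94.3 to 98.6 CPM without it. Nearly all of this came from Stmn2 (means of 61.5 and 74.8 CPM) and Map2 (16.9 and 22.0 CPM), while Rbfox3 and Snap25 were at or near 0. The part of neuronal cells in the Tmod2 value was not tested. Tmod4, a tropomodulin of fast skeletal muscle that is not among the 10 and was looked up after its values were seen, had 7, 13 and 10 counts with lenvatinib, against 7, 14 and 5 counts without it, and was too low to test.

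Among the leiomodins, Lmod1 is the smooth muscle form (ENSMUSG00000048096, chromosome 1, 135252545 to 135295803, plus strand). It had 22.4, 26.3 and 25.6 CPM with lenvatinib, against 17.5, 15.8 and 15.9 CPM without it. All lenvatinib libraries were higher, with means of 24.7 ± 2.07 CPM with lenvatinib and 16.4 ± 0.973 CPM without it and a log2 fold change of 0.60 ± 0.07 (adjusted p = 3e-09). A list of 7 smooth muscle cell markers had 4 tested genes, of which 2 were higher and none lower. The list summed to 613 to 634 CPM with lenvatinib and 588 to 596 CPM without it. The 2 higher were Actg2 (means of 50.2 and 31.3 CPM) and Cnn1 (5.53 and 2.17 CPM). Most of the sum came from Synpo2 (396 and 391 CPM) and Smtn (170 and 168 CPM), which were not called. The defining genes of the list, Myh11 and Myocd, were near 0 in both groups. The part of smooth muscle cells in the Lmod1 value was not tested.

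Lmod2 is known for the heart, where mice without it have short thin filaments, and is also made in skeletal muscle (ENSMUSG00000029683, chromosome 6, 24597761 to 24605413, plus strand). It had 178, 178 and 173 CPM with lenvatinib, against 150.5, 149.9 and 157 CPM without it. The groups did not overlap, and the log2 fold change was 0.21 ± 0.03 (adjusted p = 4.61e-07).

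Lmod3 is the skeletal muscle form, whose loss in humans causes nemaline myopathy (ENSMUSG00000044086, chromosome 6, 97215495 to 97229720, minus strand). It had 246, 257 and 240.9 CPM with lenvatinib, against 260.5, 259 and 258 CPM without it. The lenvatinib libraries were all lower, but the second of them only by a small margin, and the log2 fold change of -0.07 ± 0.03 did not pass (adjusted p = 0.0871). It passed without lenvatinib replicate 2 (-0.09, adjusted p = 0.0354).

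Levels of different genes were compared as CPM per kb of the deposited feature length, which counts all annotated exons and not the form in use. On this scale the 3 highest of the 10 genes were Tpm2, at 742 ± 4.75 with lenvatinib and 734 ± 7.33 without it, Tpm1, at 282 ± 6.01 and 229 ± 2.31, and Tpm4, at 121 ± 3.69 and 109 ± 0.998. Next came Lmod2, at 89.2 ± 1.37 CPM per kb with lenvatinib and 77.2 ± 1.99 without it, and Lmod3, at 60.9 ± 1.99 and 63.7 ± 0.316. Tmod1 was at 43.5 ± 0.466 CPM per kb with lenvatinib and 32.97 ± 0.398 without it, and Tpm3 at 37.8 ± 0.743 and 44.1 ± 0.454, so these neighbours stood in the opposite order in the untreated libraries. Lmod1 was at 6.14 ± 0.514 CPM per kb with lenvatinib and 4.06 ± 0.241 without it, and Tmod3 at 5.11 ± 0.194 and 5.96 ± 0.0668, which also exchanged places. In neither group did the libraries of neighbouring genes in this order overlap. The Tpm3 level leaves out the reads of Tpm3-rs7 (39.5 ± 1.07 CPM with lenvatinib). With those reads added, over the Tpm3 feature length, the lenvatinib libraries of Tpm3 and Tmod1 overlapped. In the untreated libraries Tpm3 stayed above Tmod1. The exchange of places between Tmod1 and Tpm3 therefore holds only with those reads left out. In plain CPM, Tpm3 was above Tmod1 and Tmod3 above Lmod1 in both groups. Tmod2 was lowest, at 0.203 ± 0.0549 CPM per kb with lenvatinib and 0.145 ± 0.0332 without it.

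Each family's make-up was taken from these levels, as the percent that a gene holds of its family's sum. Tpm1 held 23.9 ± 0.302% of tropomyosin with lenvatinib and 20.5 ± 0.242% without it, and Tpm2 held 62.7 ± 0.442% and 65.8 ± 0.39%. The share of Tpm2 was lower although its own level did not pass the test. Tpm3 held 3.2 ± 0.0822% with lenvatinib and 3.96 ± 0.0585% without it. Among tropomodulins, Tmod1 held 89.1 ± 0.154% with lenvatinib and 84.4 ± 0.0868% without it, and Tmod3 held 10.5 ± 0.271% and 15.3 ± 0.153%. Among leiomodins, Lmod2 held 57.1 ± 0.704% with lenvatinib and 53.2 ± 0.772% without it, and Lmod3 held 39.0 ± 0.514% and 44.0 ± 0.658%. In 9 of the 10 genes, all but Tmod2, the shares of the groups did not overlap (exact permutation test, two-sided, p = 0.1 each, the smallest that 3 against 3 libraries allow; 0.111 adjusted over the 10 shares). The shares of a family are parts of the same whole, so a larger share of a gene lowers those of the others. They are not separate results.

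The summed level of the 4 tropomyosins was 1183 ± 12.03 CPM per kb with lenvatinib and 1115 ± 5.22 without it, a ratio of 1.06. That of the 3 tropomodulins was 48.8 ± 0.602 CPM per kb with lenvatinib and 39.1 ± 0.466 without it, a ratio of 1.25, and that of the 3 leiomodins 156 ± 3.15 and 144.95 ± 1.73, a ratio of 1.08. The groups did not overlap in any of these 3 sums (exact permutation test, two-sided, p = 0.1 each, again the smallest possible).

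**Figure D3:**
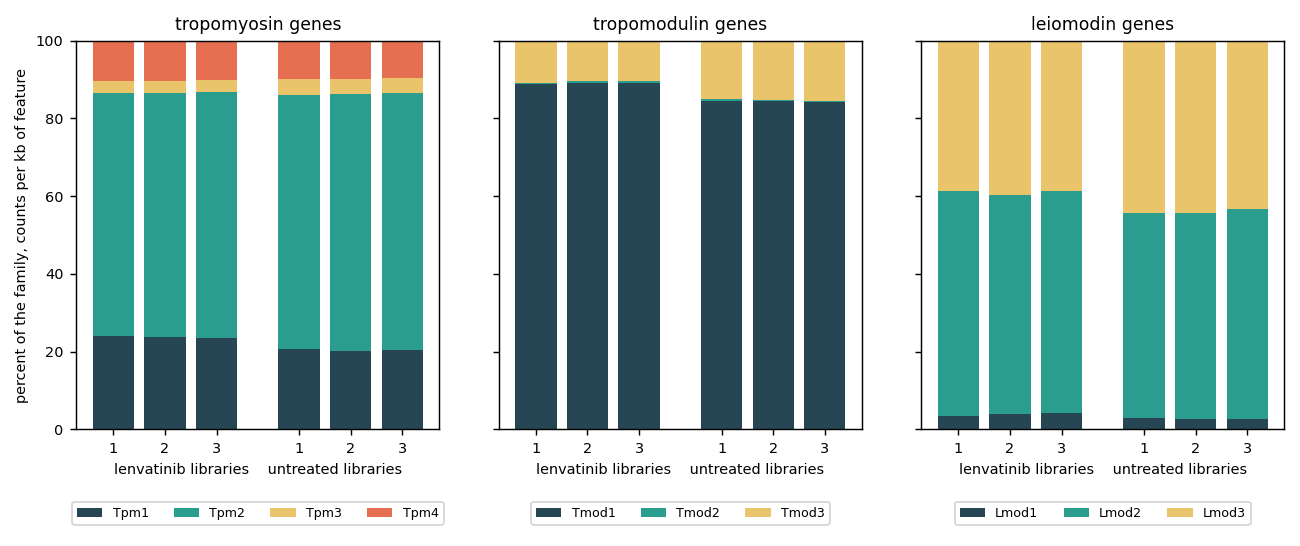
Stacked bars give each gene's percent of its family's counts per kb of feature, for the 3 lenvatinib libraries (left in each panel) and the 3 untreated libraries (right). Tmod1 takes 88.9 to 89.2% of the tropomodulin bar with lenvatinib and 84.3 to 84.4% without it.

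Genes of 1 family were also compared directly, as the log2 ratio of their counts in each library, over 12 pairs. In 10 pairs the ratios of the groups did not overlap (exact permutation test, two-sided, p = 0.1 each, 0.12 adjusted over the 12 pairs). The pairs of a family reuse the same genes and are not separate results. Tmod1 over Tmod3 averaged 1.59 ± 0.04 with lenvatinib and 0.97 ± 0.02 without it (SD, n = 3 each), a difference of 0.62. Lmod1 over Lmod3 averaged -3.33 ± 0.12 with lenvatinib and -3.99 ± 0.08 without it, a difference of 0.66. Tpm1 over Tpm3 averaged 2.87 ± 0.06 with lenvatinib and 2.35 ± 0.02 without it, a difference of 0.53. Tpm1 over Tpm4, both of which rose, was 0.15 higher with lenvatinib. The 2 pairs that overlapped were Tmod1 over Tmod2 (exact permutation p = 0.9) and Tmod2 over Tmod3 (exact permutation p = 0.2), in which Tmod2 has 39 to 94 counts per library.

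Other genes of the actin filament were counted from 5 fixed lists. For comparison, 13.3% of all tested rows were higher and 14.9% lower with lenvatinib. Of 16 tested partners of the muscle thin filament, such as troponins, nebulin and its helpers, 4 rose, 2 fell and 10 did not pass, with a median log2 fold change of -0.01. Nrap, a scaffold of growing myofibrils, had 339.9 ± 3.43 CPM with lenvatinib and 290.1 ± 2.43 CPM without it (0.23 ± 0.03, adjusted p = 4.49e-09), and the fast troponin C gene Tnnc2 rose by 0.18 on the log2 scale. The slow troponin T gene Tnnt1 fell by 0.29 and Klhl41, a kelch protein that stabilises nebulin, by 0.13. The slow troponin genes Tnnc1 and Tnni1 rose, by 0.11 and 0.09, and the fast troponin genes Tnni2 and Tnnt3 did not pass (-0.01 and 0.06).

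Of 29 tested genes for actin capping, nucleation and turnover, 8 rose, 9 fell and 12 did not pass (median -0.01). Eps8, which caps and bundles actin at the other, barbed end, had 61.4 ± 1.6 CPM with lenvatinib and 120.9 ± 3.43 CPM without it (-0.98 ± 0.04, adjusted p = 2.13e-24). Fhod3, a formin needed for sarcomeric actin, had 74.5 ± 0.893 CPM with lenvatinib and 50.5 ± 2.92 CPM without it (0.56 ± 0.04, adjusted p = 2.21e-14). Of the actin monomer binders, Tmsb4x rose by 0.33 and Tmsb10 fell by 0.23 on the log2 scale.

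Tropomodulin also caps the short filaments of the spectrin membrane skeleton. Of 14 tested genes of that skeleton 3 rose, 3 fell and 8 did not pass (median 0.05). Ank1, Add3 and Epb41, which encode an ankyrin, an adducin and protein 4.1, rose by 0.17, 0.22 and 0.27, and the ankyrin gene Ank3 fell by 0.46 on the log2 scale. With DESeq2 the number lower was 1.

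Of 15 tested genes of serum response factor, its cofactors and the smooth muscle type cytoskeleton, 9 rose, 1 fell and 5 did not pass, with a median of 0.18. Tagln, Acta2, Myl9 and Actg2 had the smallest p, with log2 fold changes of 1.40, 0.60, 0.55 and 0.68, beside 0.60 for Lmod1. The 1 that fell was Mylk (-0.39), and Srf itself (0.08), Mrtfb, Smtn, Vcl and Flna did not pass. Of 17 tested genes of non-muscle actomyosin 7 rose, 3 fell and 7 did not pass (median 0.05). The cytoplasmic actin gene Actg1 rose by 0.13 and the myosin light chain gene Myl12a by 0.21, while Zyx and Pls3, for a focal adhesion protein and an actin bundler, fell by 0.15 and 0.14.

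**Figure D4:**
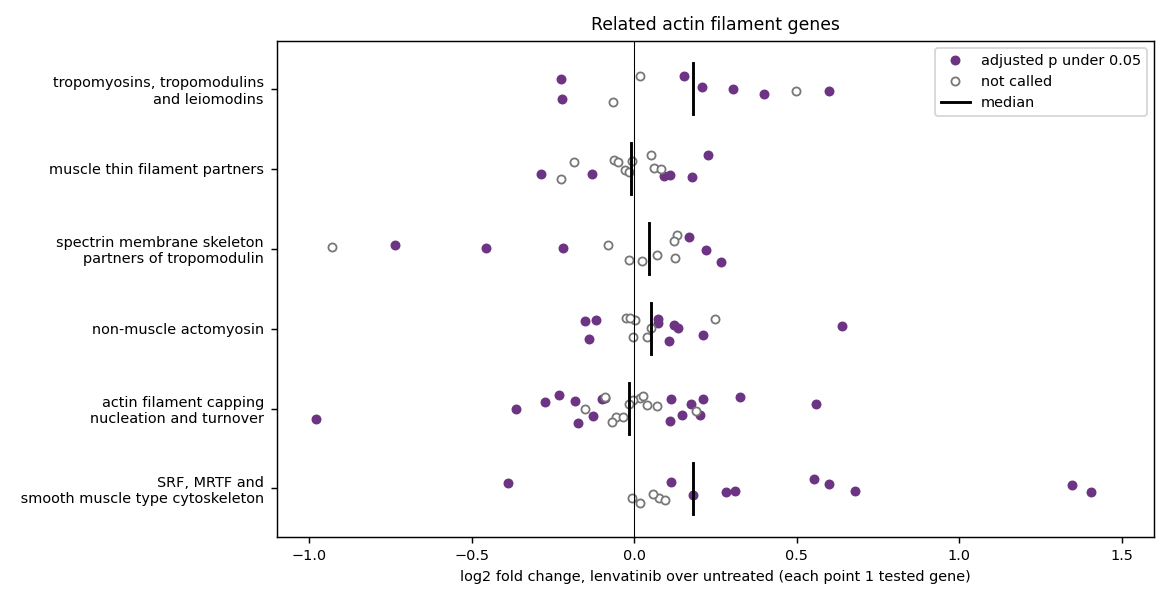
Each point is the log2 fold change of 1 tested gene, lenvatinib over untreated, for the 10 tropomyosin, tropomodulin and leiomodin genes (top) and 5 lists of related genes, with filled points for genes called at an adjusted p under 0.05 and a bar at each median. The medians are 0.18 for the 10 genes and for the smooth muscle type list and between -0.01 and 0.05 for the other 4 lists.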

How the data were processed

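The authors deposited raw read counts for each gene and library, with no normalization. Per the labels' protocols, Hisat2 2.0.1 was the aligner, and the submitters' processing notes name HTSeq 0.6.1 and mm10. The library kit, annotation and strand setting were not given in these sources. Columns were matched to samples by name. The start and end of 0 of the 10 genes were those of GRCm38.p6, so deposited positions were not combined with RefSeq sequence.

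The comparison used edgeR 4.0.16 in R 4.3.3 (TMM, glmQLFit with robust estimation, glmQLFTest) on rows kept by filterByExpr (minimum count 10, total 15), with Benjamini-Hochberg adjustment over all tested rows. SE came from the F statistic. The code was tested on simulated data. A value of 3 counts corresponds to 0.0927 to 0.123 CPM, counting error only. The chi-square per degree of freedom between replicates was 2.78 to 5.6, above sampling noise. Shared 50-base stretches came from GENCODE M21 transcripts.

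Named genes were the 10 genes and up to 4 per list with the smallest p. Other listed genes named beside these were added after their values were seen. Members and lists were chosen with earlier results of these data known. Alternatives included DESeq2 1.42.0 and limma-voom (limma 3.58.1).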

Additional observations from a re-analysis of the deposited data

How the results depend on the processing

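The 5 rises and 2 falls among the 10 genes kept their direction and their side of the threshold under all 16 alternatives run: other scalings, other filters, DESeq2, limma-voom, an adjusted p under 0.01, the replicate block, each library left out, and, chosen after seeing the data, the counts of Tpm3-rs7 and Gm7809 added to Tpm3 and Tpm4. With each library left out in turn, 5 to 6 of the 10 genes were higher and 2 to 3 lower, and 1716 to 1795 of all rows were higher and 1902 to 2045 lower. With the replicate number as a block, 5 were higher and 2 lower, and 1952 and 2182 of all rows; same-numbered libraries did not deviate together (correlations 0.022, -0.078 and -0.004), not every library correlated best with its own number, and the numbers are not known to pair samples. The spectrin skeleton genes called lower were 1 with DESeq2 and 1 at an adjusted p under 0.01, and 1 to 3 with a library left out (1 without lenvatinib replicate 1 or 2 or untreated replicate 1 or 2); the cause was not tested. In plain counts, not per length, the difference in family share, lenvatinib minus untreated, was 4.35 points for Tpm1, -1.21 for Tpm3, 8.70 for Tmod1, 0.171 for Tmod2, -8.87 for Tmod3 and 1.69 for Lmod1, since longer features then weigh more. Tmod2, with 39 to 94 counts per library, is limited by depth and had no value under the filter of 5 CPM in 3 libraries.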
